A study of Mus musculus with 12 samples.

Results

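Melanoblast and pigment genes were followed as a set of 10 genes, Pmel, Mitf, Dct, Tyr, Tyrp1, Kit, Sox10, Oca2, Mlana and Slc45a2, taken by symbol from the 41079 genes of the deposited count table. All 10 were found. RNA came from 12 whole mouse embryos between 10.0 and 11.0 days after fertilization, all from matings between animals that carried 1 disrupted copy of Mfsd12. Per the labels, 4 embryos were Mfsd12 knockout, 4 heterozygous (Mfsd12 Het) and 4 wild-type, each embryo with a title of its own. The labels do not describe the disrupted allele, the strain or the sex, and give no stage for any single embryo. The protein made from Mfsd12 sits in the membrane of lysosomes and melanosomes, and cysteine enters them with its help.

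Melanoblasts are the precursors of pigment cells. They arise from the neural crest, migrate under the skin in this period of development and later fill melanosomes, which are lysosome-related organelles, with melanin. The transcription factors Sox10 and Mitf and the receptor Kit specify the cells and keep them alive, whereas Pmel, Dct, Tyr and Tyrp1 are turned on as the cells differentiate. The retinal pigment epithelium of the eye uses many of the same genes, Sox10 is also used by glia and the ear vesicle, Dct by the forebrain, and Kit by blood and germ cells. In RNA from a whole embryo, fewer cells of a type and less RNA per cell cannot be told apart, and nor can the cell types that share a gene.

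The genes of the tyrosinase family share letters just ahead of their start sites, and these are shown because the results below turn on them together with Pmel, for which no promoter was at hand. RefSeq promoters (GRCm38.p6, a different build from the GRCm39 of the counts) were available for 6 of the 10 genes, with 9 start sites in all. In the 250 bases before the start, the E-box letters CATGTG, of the kind bound by MITF, were searched on both strands. The windows below have 30 bases each, 5′ to 3′, with CATGTG in capitals. Each is written on the strand on which CATGTG reads, which is the gene's own strand for the first 3 and the opposite strand for the others.
Dct, chr14:118052379-118052408: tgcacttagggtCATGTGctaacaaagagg
Tyr, chr7:87493516-87493545: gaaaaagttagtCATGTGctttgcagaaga
Tyrp1, chr4:80834155-80834184: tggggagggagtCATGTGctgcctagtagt
Dct, chr14:118052461-118052490: ctttattgggctCATGTGtcccagccaagc
Oca2, chr7:56239561-56239590: gaaaattccagcCATGTGtagcaagctcaa

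The first 3 windows share an unbroken run of 10 letters, GTCATGTGCT, which occurred in 0.157% of the 30582 promoters of genes in the table. This run was chosen after the letters had been seen. CATGTG itself occurred in 12% of those promoters, and TCATGTG, which contains it and is the core of the M-box of pigment genes, in 3.2%. TCATGTG was found before the starts of Dct, at 2 places, Tyr and Tyrp1. None of the 3 start sites of Mitf or the 2 of Kit held CATGTG in this stretch, and CACGTG, found in 6.2% of promoters, was before none of the 9 starts. The SOX-type letters ACAAAG, found in 16.1% of promoters, lay before Dct at 2 places, Tyrp1 and Oca2. These are matches of letters only, and binding was not measured.

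The whole stretch before the Dct start holds both of its CATGTG matches and both ACAAAG matches, and that of Tyr holds its CATGTG match close to the start. They are printed 5′ to 3′ on the gene's strand with CATGTG, or its reverse complement CACATG, in capitals.
Dct, minus strand, chr14:118052247-118052496: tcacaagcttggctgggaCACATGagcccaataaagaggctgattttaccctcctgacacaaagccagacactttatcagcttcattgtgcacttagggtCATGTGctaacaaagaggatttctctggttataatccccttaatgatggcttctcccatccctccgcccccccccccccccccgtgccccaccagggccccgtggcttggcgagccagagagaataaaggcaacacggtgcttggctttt
Tyr, minus strand, chr7:87493513-87493762: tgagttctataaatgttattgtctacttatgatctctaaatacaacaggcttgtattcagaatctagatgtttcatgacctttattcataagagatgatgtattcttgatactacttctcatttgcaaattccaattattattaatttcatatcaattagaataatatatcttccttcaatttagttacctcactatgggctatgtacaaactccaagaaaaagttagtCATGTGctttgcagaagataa

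Between 53133084 and 67977990 reads were counted per embryo, and levels are given as counts per 1000000 reads (CPM) scaled for library composition. Mfsd12 itself had 2.31 to 3.57 CPM among knockouts against 9.38 to 16.2 CPM among wild-type embryos. Heterozygous embryos 1, 3 and 4 lay between these groups, and the library labelled heterozygous 2, at 2.58 CPM, lay within the knockout range and so went against its label. Comparisons with heterozygous embryos and correlations are therefore also given without it. Xist, a marker of female sex, was high in every heterozygous embryo, from 429 to 1745 CPM. Among the others only knockout 1 (1133 CPM) and wild-type 2 (396 CPM) were high, and the rest had 9.39 CPM or less. Likely sex was thus unbalanced in both comparisons with heterozygous embryos, and its part in them cannot be separated from that of genotype. All 10 genes passed the filter on low counts, and Tyr, Tyrp1 and Mlana did so mainly through embryos of other genotypes than knockout. At least 10 reads were counted in 2, 1 and 1 of the 4 knockout embryos, respectively. For Mlana that count was reached in 0 heterozygous and 3 wild-type embryos, so it passed mainly through wild-type embryos.

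The 10 genes differed widely in abundance. Divided by exon length (RPKM), Sox10 and Kit were the most abundant in wild-type embryos, at 4.42 ± 0.559 and 4.20 ± 1.04 RPKM (SD, n = 4). Pmel followed at 3.09 ± 0.735 RPKM and Dct at 1.65 ± 0.805 RPKM, and Dct lay above Mitf, at 0.399 ± 0.0711 RPKM, with ranges that did not overlap. Below Mitf came Mlana (0.287 RPKM), Tyr (0.16 RPKM), Oca2 (0.151 RPKM), Slc45a2 (0.13 RPKM) and Tyrp1 (0.0927 RPKM). Every other pair of neighbours in this order had overlapping ranges, and the order of Sox10 and Kit, and of Slc45a2 and Tyrp1, held in only 2 of the 4 wild-type embryos.

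**Figure D1:**
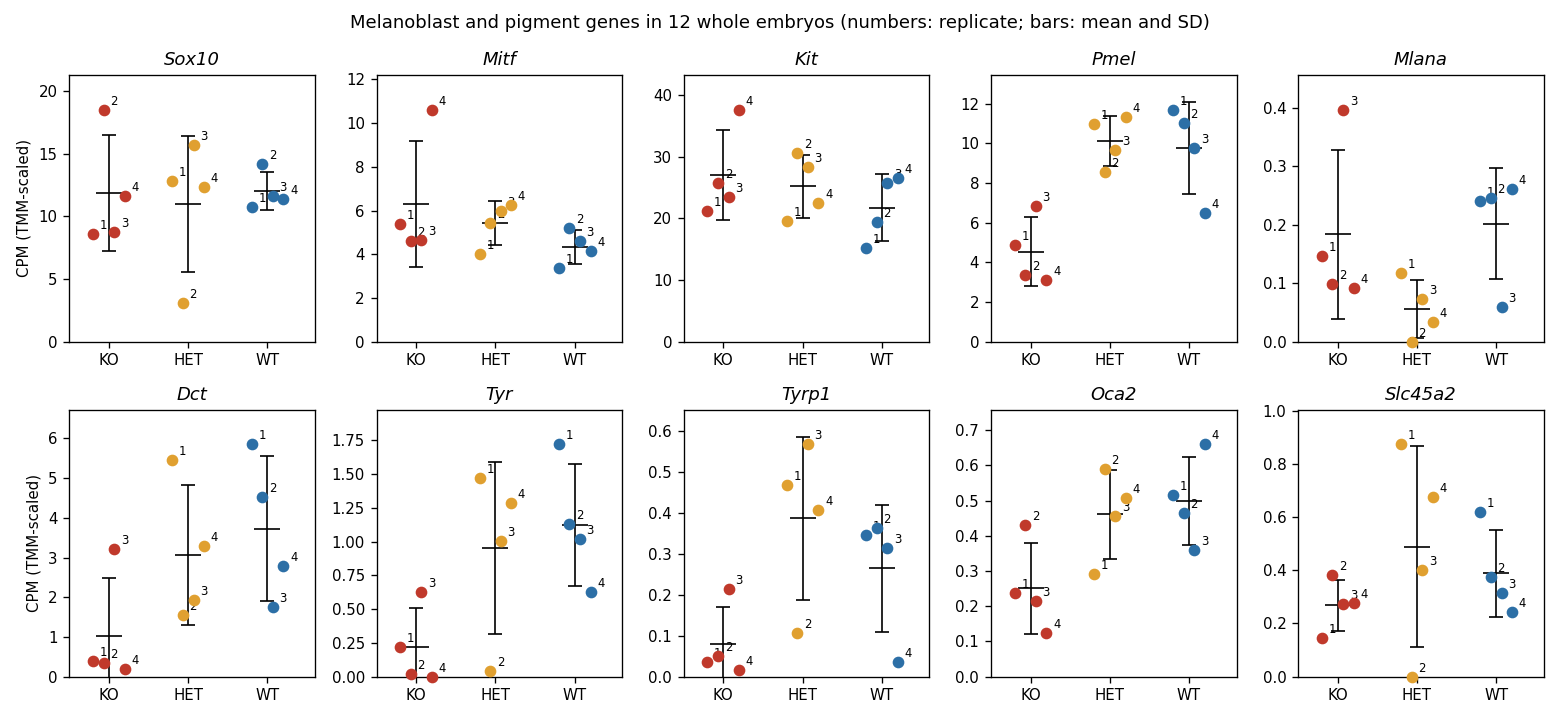
CPM of each gene in every embryo, by genotype (KO knockout, HET heterozygous, WT wild-type). Points are embryos with their replicate number, and bars are the mean and SD of 4, with the part of a bar below 0 not drawn; Dct, Tyr and Pmel are low in 3 of the 4 knockout embryos, and knockout 3 is the exception.

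Pigment-making genes had lower means in knockout than in wild-type embryos. Knockout means were 2.14-fold lower for Pmel, 3.61-fold for Dct, 5.22-fold for Tyr, 3.35-fold for Tyrp1 and 1.99-fold for Oca2. Among the regulators, Sox10 had nearly equal means, and those of Mitf and Kit were higher in knockout embryos. No gene passed the edgeR quasi-likelihood test with Benjamini-Hochberg adjustment over all 20771 genes tested, in this or the other comparisons (0% called). At an unadjusted p under 0.05, 4 of the 10 genes, Pmel, Dct, Tyr and Oca2, lay lower and 0 higher, against 4.08% of all genes lower, 4.25% higher and 8.33% in either direction. This count of 4 was 2 (Pmel and Dct) with the title number as a block, with Xist as a covariate and with no filter, and 0 with the stage index described below. It ran from 1 to 4 with single embryos left out, and was 1 (Pmel) without knockout 1, knockout 4, wild-type 1 or wild-type 2. Without knockout 3, Mitf was also higher at that threshold. Knockout 4 and heterozygous 3 are the only embryos with their title numbers (15 and 4.1b). The block therefore fits them exactly, and they add nothing to its estimates. For none of the 10 did the knockout and wild-type groups lie apart, against 1.83% of all genes with every knockout embryo lower and 1.60% with every one higher. Of the 10 log2 fold changes, 8 were negative (48.7% of all genes), with a median of -0.75 against 0.01 over all genes.

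Sox10 (chromosome 15, 79039113 to 79048690, minus strand, GRCm39) is the neural crest factor that switches on Mitf. It had 8.58, 18.5, 8.79 and 11.6 CPM in knockout embryos 1 to 4, 12.8, 3.13, 15.7 and 12.3 CPM in heterozygous embryos 1 to 4, and 10.8, 14.2, 11.6 and 11.4 CPM in wild-type embryos 1 to 4. The knockout values surrounded the wild-type values, and the lowest of all was the library labelled heterozygous 2. Knockout against wild-type gave a log2 fold change of -0.01 ± 0.39 SE (edgeR adjusted p = 0.993, exact permutation p = 0.857, two-sided).

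Mitf (chromosome 6, 97783966 to 97998321, plus strand) encodes the basic helix-loop-helix factor that drives pigment genes. It had 5.37, 4.62, 4.64 and 10.6 CPM in the knockout embryos and 3.37, 5.22, 4.59 and 4.17 CPM in the wild-type embryos. Only knockout 4 lay clear of the other groups, whose heterozygous values ran from 4.01 to 6.25 CPM. The log2 fold change was 0.54 ± 0.29 SE (edgeR adjusted p = 0.627, exact permutation p = 0.143), and it was 0.17 without knockout 4. The table does not separate the Mitf start sites, which are used in different cell types, so the level of the pigment cell form is not known from it.

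Kit (chromosome 5, 75735647 to 75817382, plus strand) is the receptor through which melanoblasts survive and migrate. It had 21.3, 25.7, 23.5 and 37.7 CPM in knockout embryos and 15.3, 19.5, 25.8 and 26.6 CPM in wild-type embryos. The groups overlapped, with a log2 fold change of 0.31 ± 0.23 SE (edgeR adjusted p = 0.707, exact permutation p = 0.371), and of 0.11 without knockout 4. Its ligand gene Kitl had 38.0 to 59.3 CPM among knockouts against 19.6 to 45.3 CPM among wild-type embryos (a log2 difference of 0.57 ± 0.25 SE, edgeR adjusted p = 0.597).

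Pmel (chromosome 10, 128531757 to 128555993, plus strand) encodes the protein of the fibrils on which melanin is laid down. It had 4.86, 3.35, 6.86 and 3.12 CPM in knockout embryos, 10.96, 8.57, 9.68 and 11.3 CPM in heterozygous embryos, and 11.7, 11.0, 9.79 and 6.48 CPM in wild-type embryos. All knockout embryos lay below all heterozygous embryos, and 3 of 4 lay below all wild-type embryos, since wild-type 4 was slightly below knockout 3. The log2 fold change was -1.10 ± 0.27 SE against wild-type (edgeR adjusted p = 0.537, exact permutation p = 0.0571). Against heterozygous embryos it was -1.16 ± 0.27 SE (edgeR adjusted p = 0.601, exact permutation p = 0.0286, the smallest that 4 against 4 embryos can give). DESeq2, which called 122 genes against wild-type (0.587%) and 74 against heterozygous embryos (0.356%), called Pmel in both (adjusted p = 0.023 and 0.0265), and it called no other of the 10 genes to which it gave an adjusted p (Mlana had none against wild-type).

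The Pmel count contains reads that may belong to another gene. In the annotation used for counting, 263 exon bases of Pmel (chromosome 10, 128531898 to 128532160) are also exon of Rab5b, a gene for a small GTPase of endosomes on the opposite strand. Strand was not used in counting, and a read over both genes was split between them. Rab5b was much more abundant, at 73.7 ± 10.8 CPM among knockouts against 89.8 ± 6.07 CPM among wild-type embryos (SD, n = 4). If Rab5b reads were spread evenly over its 4428 exon bases, 117 to 197 reads per embryo of the Pmel count would come from Rab5b. That is 37.4% to 69.3% of the Pmel count in knockout embryos and 25.2% to 39.3% in wild-type embryos. With that estimate taken off, Pmel had 2.30 ± 1.48 CPM in knockout, 7.49 ± 1.24 CPM in heterozygous and 6.998 ± 2.16 CPM in wild-type embryos, and the log2 fold change against wild-type was -1.61 (edgeR adjusted p = 0.538). Real coverage is rarely even, so these are rough values.

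**Figure D2:**
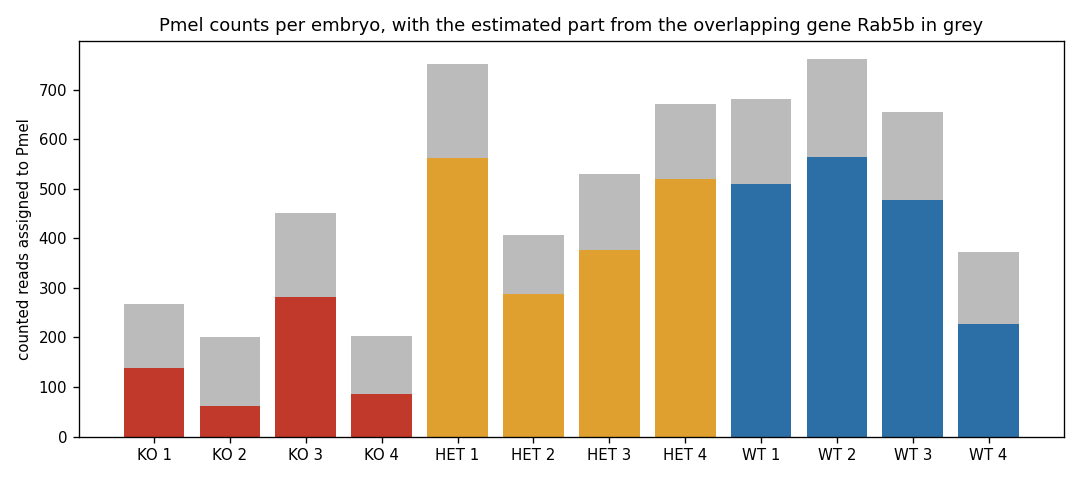
Reads assigned to Pmel in each embryo (bar height), with the part estimated to come from the overlapping gene Rab5b under even coverage in grey. The coloured part, what is left for Pmel, is smallest in knockout 2 and knockout 4.

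Dct (chromosome 14, 118250202 to 118289658, minus strand), dopachrome tautomerase, is an early enzyme of melanoblasts. It had 0.402, 0.331, 3.20 and 0.199 CPM in knockout embryos, which is 22, 20, 210 and 13 reads. The heterozygous embryos had 5.45, 1.56, 1.94 and 3.28 CPM and the wild-type embryos 5.85, 4.53, 1.75 and 2.78 CPM. Knockout 1, 2 and 4 lay below every other embryo, and knockout 3 lay inside the range of the other genotypes. The log2 fold change against wild-type was -1.84 ± 0.77 SE (edgeR adjusted p = 0.587, exact permutation p = 0.0857), and without knockout 3 it was -3.57 (edgeR adjusted p = 0.131).

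Tyr (chromosome 7, 87073979 to 87142637, minus strand), tyrosinase, carries out the rate-limiting step of melanin synthesis. It had 0.219, 0.0166, 0.625 and 0 CPM in knockout embryos, from 12, 1, 41 and 0 reads, and the 0 in knockout 4 allows a level of up to 0.0459 CPM. The heterozygous embryos had 1.47, 0.0422, 1.005 and 1.29 CPM and the wild-type embryos 1.72, 1.13, 1.02 and 0.625 CPM. The library labelled heterozygous 2, with 2 reads, lay within the knockout range, and knockout 3 was about level with wild-type 4. The log2 fold change was -2.37 ± 1.06 SE against wild-type (edgeR adjusted p = 0.598, exact permutation p = 0.0571) and -3.83 without knockout 3.

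Tyrp1 (chromosome 4, 80752360 to 80769973, plus strand), the tyrosinase-related enzyme of later melanin steps, was scarce in every embryo. Knockout embryos had 2, 3, 14 and 1 reads, heterozygous embryos 32, 5, 31 and 24 reads, and wild-type embryos 20, 25, 21 and 2 reads. The lowest values were those of knockout 1, 2 and 4 and of wild-type 4, at 0.0347 CPM. The log2 fold change was -1.71 ± 0.84 SE against wild-type (edgeR adjusted p = 0.614, exact permutation p = 0.114) and -2.89 without knockout 3.

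Genes of the melanosome membrane were also scarce. Oca2 (chromosome 7, 55889341 to 56186266, plus strand), a melanosomal ion transporter, had 13, 26, 14 and 8 reads in knockout and 30, 32, 24 and 38 reads in wild-type embryos. Only knockout 2, at 0.431 CPM, reached the wild-type range of 0.359 to 0.66 CPM, and the log2 fold change was -0.99 ± 0.45 SE (edgeR adjusted p = 0.599, exact permutation p = 0.0571). Slc45a2 (chromosome 15, 11000807 to 11029319, plus strand), a transporter that keeps melanosomes working, had 0.146 to 0.381 CPM among knockouts against 0.243 to 0.619 CPM among wild-type embryos, and the groups overlapped (log2 fold change -0.52 ± 0.79 SE, edgeR adjusted p = 0.852). Mlana (chromosome 19, 29674956 to 29685847, plus strand), a melanosome membrane protein of young melanosomes, had 8, 6, 26 and 6 reads in knockout, 8, 0, 4 and 2 reads in heterozygous and 14, 17, 4 and 15 reads in wild-type embryos. Its highest value was in knockout 3, and the log2 fold change against wild-type was -0.13 ± 0.76 SE (edgeR adjusted p = 0.966).

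**Figure D3:**
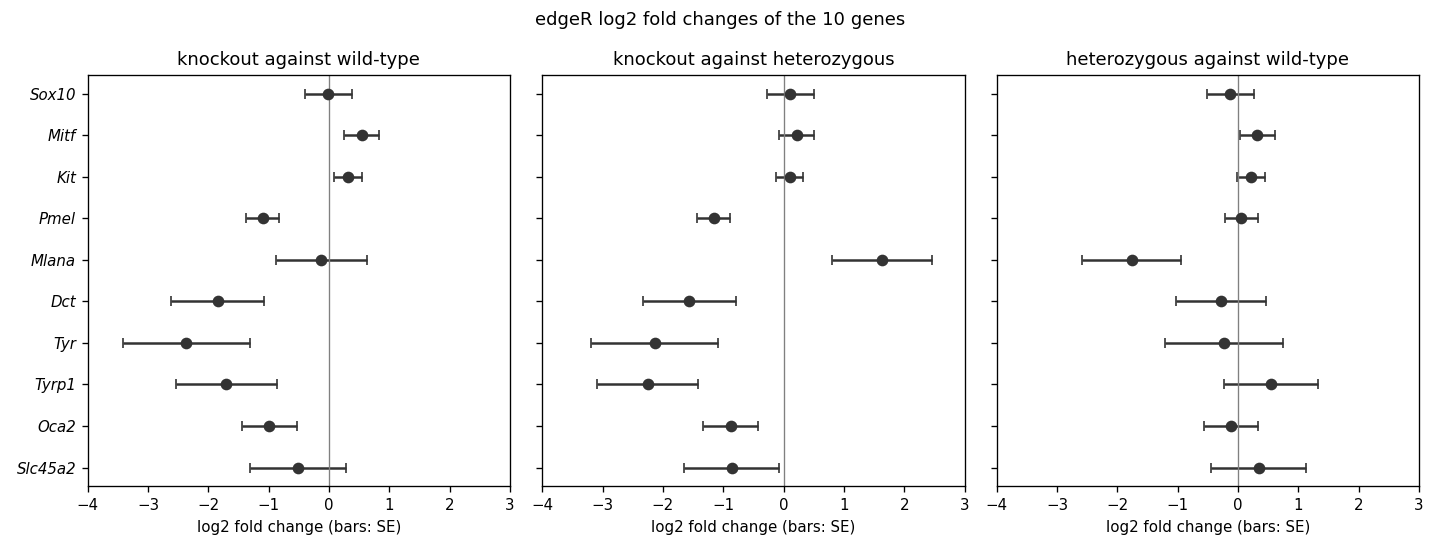
Log2 fold changes of the 10 genes (edgeR, bars are SE) in the comparisons of knockout with wild-type, knockout with heterozygous and heterozygous with wild-type embryos. Pmel, Dct, Tyr, Tyrp1 and Oca2 lie left of 0 in the first and second panels, Sox10, Mitf and Kit lie near or right of 0, and no gene passed the adjusted threshold.

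Against heterozygous embryos, the same pigment genes had lower values in the knockout. The comparison shares its knockout embryos with the one above and is not independent of it. Pmel and Tyrp1 lay lower at an unadjusted p under 0.05 (3.79% of all genes lower, 3.61% higher, 7.40% in either direction). This count of 2 ran from 1 (Pmel), when the stage index or Xist entered the model, under the stricter filter or without knockout 1, to 5 with voom. Mlana lay higher in knockout at that threshold with the title number as a block, with the stage index and without heterozygous 1. Of the 10 estimates 6 were negative, as were 50.1% over all genes, and the median over the 10 genes was -0.87 against -0.00055 over all genes. The log2 fold change of Tyrp1 was -2.25 ± 0.84 SE (edgeR adjusted p = 0.643), that of Tyr -2.13 ± 1.05 SE (edgeR adjusted p = 0.692) and that of Dct -1.56 ± 0.77 SE (edgeR adjusted p = 0.689). Pmel was the 1 gene of the 10 whose groups did not overlap, against 1.93% of all genes with knockout lower and 1.50% with knockout higher. Without the library labelled heterozygous 2, knockout lay below every heterozygous embryo for Pmel, Tyr, Tyrp1 and Slc45a2, against 4.57% of all genes. The log2 fold changes were then -1.23 for Pmel, -1.78 for Dct, -2.53 for Tyr, -2.56 for Tyrp1 and -1.27 for Slc45a2, and Sox10 turned from 0.11 to -0.20. Mlana was higher in knockout than in heterozygous embryos by 1.64 ± 0.82 SE (edgeR adjusted p = 0.692), on the few reads given above.

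Heterozygous and wild-type embryos overlapped for each of the 10 genes, where 0.443% of all genes had every heterozygous embryo lower and 0.433% every one higher. Estimates on the log2 scale were 0.06 ± 0.27 SE for Pmel, -0.28 ± 0.74 SE for Dct and -0.23 ± 0.98 SE for Tyr (edgeR adjusted p = 0.999999 for each). The estimate farthest from 0 was that of Mlana, -1.76 ± 0.82 SE (edgeR adjusted p = 0.999999, exact permutation p = 0.0857), on 0 to 8 reads per heterozygous embryo. Mlana passed the filter on low counts mainly through wild-type embryos and through 0 heterozygous embryos, so its values in this comparison are a description only. None of the 10 genes had an unadjusted p under 0.05 in this comparison, against 1.01% of all genes (0.274% lower, 0.732% higher), and 5 of the 10 estimates were negative, against 51.6% over all genes. Mlana lay lower at that threshold with the stage index and without knockout 3, heterozygous 1 or wild-type 3. With voom, Mlana lay lower and Tyrp1 higher. The library labelled heterozygous 2 was the lowest heterozygous embryo for Sox10, Pmel, Dct, Tyr, Tyrp1, Mlana and Slc45a2, and it had 0 reads of Mlana and of Slc45a2, which allows up to 0.0634 CPM of each. Its Pmel level of 8.57 CPM nevertheless lay above every knockout embryo. Without it, the log2 fold changes were 0.13 for Pmel, -0.07 for Dct, 0.16 for Tyr, 0.85 for Tyrp1, 0.18 for Sox10, 0.75 for Slc45a2 and -1.40 for Mlana, and 3 of the 10 were negative. The other 3 heterozygous embryos then lay above every wild-type embryo for Tyrp1, against 1.12% of all genes, and the groups overlapped for the other 9 genes.

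Knockout 3 stood apart from the other knockout embryos for the pigment genes. Tyr, Tyrp1 and Dct together had 4.04 CPM in knockout 3 and 0.214 to 0.657 CPM in the other 3 knockout embryos, against 3.08 to 7.92 CPM in wild-type embryos. Its Mfsd12 level of 3.57 CPM was the highest of the knockout embryos but far below wild-type. The first number in an embryo's title (14, 4, 18 and 15 for knockout 1 to 4) has no meaning stated in the labels, and only 4 and 18 occurred with every genotype. Among embryos with number 18, where knockout 3 belongs, the log2 CPM difference from wild-type was -0.72 for Pmel, -0.68 for Dct, -1.12 for Tyr and -0.65 for Tyrp1, from 1 knockout and 2 wild-type embryos. Among embryos with number 4 it was -1.24 for Pmel, -2.62 for Dct, -4.07 for Tyr and -0.89 for Tyrp1, again from 1 against 2. Knockout 2, the knockout embryo there, had 1 read of Tyr, so that difference depends on the prior count of 2 in log2 CPM. Its 3 reads of Tyrp1 lay between 2 in wild-type 4 and 21 in wild-type 3.

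Levels of Pmel, Dct, Tyr and Tyrp1 rose with an index of developmental stage read from other genes. Those of Oca2 and Slc45a2 followed it loosely at most, and that of Mlana showed no clear relation to it. The labels give no stage for any single embryo, so whether the index measures stage was not tested. This stage index was formed from 12 genes that are higher later in development, of neurons, muscle and cartilage, minus 11 measured genes that are lower later, such as Lin28a. None of the 10 pigment genes was among them. It was -0.879, -1.80, 0.111 and -3.32 in knockout embryos 1 to 4, 1.68, -0.105, 0.541 and 0.623 in heterozygous embryos and 1.32, 2.04, 0.208 and -0.424 in wild-type embryos. Knockout 3 had the highest index of the knockout embryos and knockout 4 the lowest of all. All 12 of the later genes had lower and all 11 of the earlier genes higher estimates in knockout than in wild-type embryos, so index and genotype moved together. The index genes were chosen with earlier results of these data known, so these counts are a description and not a test.

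Across the 12 embryos, log2 CPM followed the index with Pearson's r of 0.93 for Pmel, 0.92 for Dct, 0.86 for Tyr and 0.85 for Tyrp1 (Spearman's rho 0.93, 0.90, 0.92 and 0.87). Without knockout 2 and knockout 4, the embryos farthest from the median index, r was 0.84, 0.80, 0.65 and 0.78. Oca2 had an r of 0.51, Slc45a2 0.31 and Mlana 0.16, and 0.11, 0.59 and 0.17 without those embryos. Sox10 had an r of 0.03, whereas Mitf and Kit had -0.62 and -0.74, and -0.25 and -0.59 without those embryos. Without the library labelled heterozygous 2, r was 0.94 for Pmel, 0.92 for Dct, 0.93 for Tyr and 0.85 for Tyrp1, and 0.56 for Slc45a2. All values come from the same libraries and are given as a description. With the index as a covariate in edgeR, the log2 fold change of knockout against wild-type was -0.46 for Pmel in place of -1.10, -0.42 for Dct in place of -1.84, -0.70 for Tyr in place of -2.37 and 0.00058 for Tyrp1 in place of -1.71. That of Oca2 was -1.14 in place of -0.99. Mfsd12, the disrupted gene itself, also moved, to -1.25 in place of -2.01. Against heterozygous embryos the covariate gave -0.57 for Pmel in place of -1.16, -0.10 for Dct in place of -1.56, -0.27 for Tyr in place of -2.13 and -0.72 for Tyrp1 in place of -2.25. None of the index genes passed the adjusted test. At an unadjusted p under 0.05 against wild-type, 6 of the 12 later genes lay lower and 3 of the 11 earlier genes higher, against 4.08% and 4.25% of all genes. Since the index and the genotype moved together, they cannot be told apart in these embryos.

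**Figure D4:**
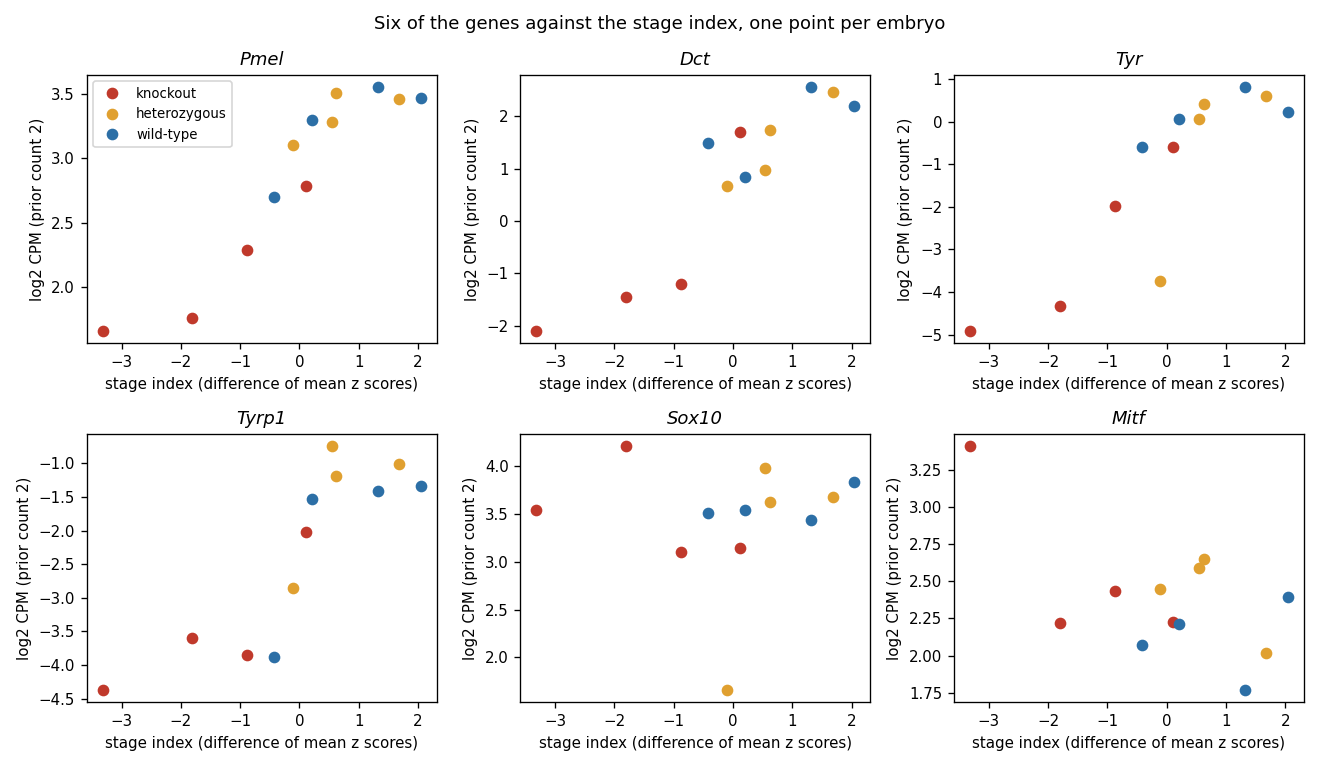
Log2 CPM of Pmel, Dct, Tyr, Tyrp1, Sox10 and Mitf (vertical axes) against the stage index (horizontal axes), with 1 point per embryo coloured by genotype. The first 4 genes rise from left to right with knockout 1, 2 and 4 at the lower left, Sox10 shows no such course, and the high Mitf point is knockout 4.

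The genes whose pattern over the 12 embryos was most like that of Pmel, by Pearson's r of log2 CPM among 20770 other genes, were Tubb2b, Cacng2, Gng3, Dner and Kctd7, each with an r of 0.95. Tubb2b is a tubulin, Cacng2 a subunit linked to neuronal receptors and Gng3 a G protein subunit of neurons. Dct ranked 61st at r = 0.90, Tyrp1 132nd at 0.88 and Tyr 235th at 0.85, while Sox10 (-0.09), Mlana (-0.07) and Kit (-0.57) were far down the order. For Dct the closest were Syt16, 1700003E16Rik, Dgkb, Dner and Vtn, with r of 0.98 for Syt16 and 0.96 for Vtn. Sox10 and Slc45a2 had an r of 0.85 with each other and a Spearman's rho of 0.68, and the library labelled heterozygous 2 had the lowest level of both. Without that library their r was 0.41, and in the order of likeness to Pmel Tyr stood 4th at 0.97, Dct 115th at 0.91 and Tyrp1 155th at 0.90, with Tubb2b 15th and Cacng2 5th.

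Other genes of the lineage were read from lists of known roles, and none passed the adjusted test in any comparison. Of 28 genes of melanosome formation and transport, 16 had a lower and 12 a higher estimate in knockout than in wild-type embryos, with a median log2 fold change of -0.05. Trpm1, a cation channel of melanocytes and retina, had 2.92, 3.40, 5.60 and 0.704 CPM among knockouts against 6.57, 7.32, 6.96 and 6.63 CPM among wild-type embryos, groups that did not overlap. It was the 1 such gene among the 28, against 1.83% of all genes with knockout lower. Its log2 fold change was -1.12 ± 0.43 SE (edgeR adjusted p = 0.561, exact permutation p = 0.0286). Bloc1s1, a subunit of a complex that sorts cargo to melanosomes, had 39.5 ± 5.95 CPM among knockouts against 59.0 ± 27.2 CPM among wild-type embryos (SD, n = 4), and Rab27a, which tethers melanosomes for transport, 8.01 ± 3.70 against 11.4 ± 2.38 CPM.

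Of 12 early neural crest regulators, 6 had lower and 6 higher estimates (median -0.0022). Sox9, which acts in crest and cartilage, had 21.6 to 46.7 CPM among knockouts against 46.8 to 67.4 CPM among wild-type embryos (a log2 difference of -0.54 ± 0.24 SE, edgeR adjusted p = 0.598), and Twist1, a mesenchyme factor, was the most abundant of the list per length at 71.9 ± 16.3 against 77.7 ± 16.2 CPM. Of 8 tested receptor, ligand and survival genes, 2 had lower and 6 higher estimates (median 0.23). Ednrb, the endothelin receptor of melanoblasts, had 31.1 ± 6.96 CPM among knockouts against 35.8 ± 7.35 CPM among wild-type embryos. Of 8 tested partners and relatives of MITF, 6 had lower and 2 higher estimates (median -0.08), with Usf1, another E-box factor, at 77.1 ± 11.5 against 99.5 ± 24.2 CPM.

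Markers of other cells that share the 10 genes are given for all listed members as summed CPM. Glial and Schwann cell precursor markers summed to 112 to 265 CPM among knockouts against 151 to 285 CPM among wild-type embryos, with 7 of 10 tested genes lower (median -0.35). Crest neuron markers had 7 of 12 lower (median -0.27) and sums of 72.7 to 106 against 57.8 to 94.99 CPM, and ear vesicle markers 4 of 9 lower (median 0.20) and 17.95 to 33.6 against 24.4 to 34.5 CPM. Eye and retinal pigment epithelium markers summed to 87.8 to 128 CPM among knockouts against 91.3 to 135 CPM among wild-type embryos, with 8 of 12 lower (median -0.19). The retinal pigment epithelium enzyme gene Rpe65 was at 0 in 11 of 12 embryos. Forebrain markers, relevant to Dct, summed to 37.2 to 64.6 CPM among knockouts against 55.4 to 89.3 CPM among wild-type embryos, and 6 of 8 had lower estimates (median -0.80). Emx2, a cortex factor, had 16.3 ± 6.46 against 26.1 ± 4.13 CPM (log2 fold change -0.68 ± 0.33 SE, edgeR adjusted p = 0.614).

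For Kit, blood progenitor and mast cell markers summed to 80.7 to 102 CPM among knockouts against 89.0 to 108 CPM among wild-type embryos, with 9 of 11 lower (median -0.29), and the mast cell protease genes Tpsb2 and Mcpt4 were at 0 in every embryo. Germ cell markers had 3 of 7 lower (median 0.05) and sums of 18.02 to 24.2 against 12.5 to 18.5 CPM. For Mitf, which the heart also uses, heart markers had 3 of 8 lower (median 0.10) and sums of 480 to 1125 against 738 to 1061 CPM. The part of these other cells in the differences of Pmel, Dct, Tyr, Kit and Mitf was not tested.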

How the data were processed

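The authors deposited 1 table of expected counts, written per the file headers by featureCounts 2.0.6 with RefSeq gene models on GRCm39. A read with more than one place or gene was shared out as fractions, mates were counted singly and strand was not used. The other deposited value, the exon length of each gene, served for RPKM. The submitters' processing notes also list DRAGEN, with no role. Libraries were made per the labels' protocols with a kit for stranded mRNA, from 325 ng RNA each. Spike-ins were added, and the table held 0 of them.

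Counts were rounded and filtered with filterByExpr (minimum count of 10), which left 20771 of 41079 genes. Scaling was by TMM, and the test was edgeR 4.0.16 (quasi-likelihood, robust, all 12 embryos, R 4.3.3) with Benjamini-Hochberg adjustment at 0.05. It was tested on simulated data. SE is the log2 fold change over the square root of F. Log2 CPM used a prior count of 2. Exact two-sided permutation tests of 4 against 4 embryos cannot go below p = 0.0286. A count of 0 was taken to allow 3 reads, which covers counting error only. No libraries agreed within sampling noise. DESeq2 1.42.0 and limma 3.58.1 (voom) were alternatives, with other scalings and filters, covariates, and each embryo left out.

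Embryos were grouped by the genotype label and numbered in deposition order, so the numbers pair nothing. The 10 genes and the lists were chosen with earlier results of these data known. Genes named from a list are the 3 with the smallest p against wild-type, the most abundant per length, or members named for their role after their values were seen; 1 gene of the rule is not reported here. The summed level of Tyr, Tyrp1 and Dct was also chosen after the values were seen. Promoter sequences are from RefSeq.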

Additional observations from a re-analysis of the deposited data

Results flagged for a closer look

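Within a genotype, 4 values lay far from the other 3 embryos by Dixon's criterion, among 33 groups of 4 tested, where chance flags about 1 in 20. Mitf had 10.6 CPM in knockout 4, against 5.37 CPM in the next. Dct had 3.20 CPM in knockout 3, against 0.402 CPM in the next. Tyrp1 had 0.0347 CPM in wild-type 4, which is 2 reads, against 0.314 CPM in the next. Mlana had 0.0599 CPM in wild-type 3, which is 4 reads, against 0.241 CPM in the next.

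For 3 genes, the knockout embryo lay on opposite sides of the wild-type embryos in title numbers 18 and 4, with 1 knockout and 2 wild-type embryos each. This difference was not tested. The log2 CPM difference of knockout from wild-type was 0.44 in number 18 and -0.025 in number 4 for Kit, -0.49 and 0.69 for Sox10, and -0.75 and 0.42 for Slc45a2.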

How the results depend on the processing

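Under 22 other settings and 1 added after seeing the data (Pmel less its estimated Rab5b reads), wherever the gene was tested, the log2 fold changes of Pmel, Dct, Tyr and Oca2 against wild-type, and of these and Tyrp1 against heterozygous embryos, stayed negative, though with the stage index they came as near to 0 as -0.42 for Dct against wild-type and -0.10 for Dct against heterozygous embryos. DESeq2 called 90 genes higher and 32 lower against wild-type, 44 and 30 against heterozygous embryos, and 4 lower between heterozygous and wild-type embryos. In the first and second of these comparisons 1 of the 10 genes was called, Pmel (log2 fold change -1.09 and -1.15). The title number as a block gave 2 higher calls against wild-type, and single embryos left out gave 0 to 1, as they did against heterozygous embryos.

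Against heterozygous embryos, Mlana also stayed positive and Slc45a2 negative wherever tested. Between heterozygous and wild-type embryos, Mlana stayed negative and Mitf and Tyrp1 positive. Signs of the remaining estimates depended on the setting, and the cause was not tested. The largest of them was that of Tyrp1 against wild-type, reported as -1.71. Negative estimates against wild-type numbered 5 in place of 8 with the title block, where Sox10, Mlana and Slc45a2 were 0.39, 0.32 and 0.31. With the stage index, Mitf, Tyrp1, Kit, Sox10, Mlana and Slc45a2 were -0.013, 0.00058, -0.25, 0.053, 0.87 and 0.19. Kit was -0.0093 with voom and Sox10 0.0057 with Xist as a covariate. With single embryos left out, Sox10 ranged from -0.31 to 0.12 and Mlana from -0.82 to 0.093. Against heterozygous embryos, Mitf was -0.054 (voom), -0.0903 (title block) and -0.28 (stage), Kit -0.018 (title block), -0.0025 (Xist) and -0.45 (stage), and Sox10 -0.25 (voom) and -0.096 (Xist). With single embryos left out, Mitf ranged from -0.14 to 0.36, Kit from -0.096 to 0.21 and Sox10 from -0.20 to 0.33. Between heterozygous and wild-type embryos, Dct was 0.15 (voom), 0.37 (title block) and 0.052 (Xist), Tyr 0.36 and Kit -0.043 (voom), Sox10 0.063 (voom) and 0.10 (Xist), Pmel -0.081 and Oca2 0.17 (Xist). With single embryos left out, Pmel ranged from -0.095 to 0.16, Dct from -0.72 to 0.0197, Tyr from -0.52 to 0.16, Sox10 from -0.35 to 0.18, Oca2 from -0.25 to 0.048 and Slc45a2 from -0.096 to 0.75. There, negative estimates numbered 3 with voom and with Xist in place of 5, and 3 to 6 with single embryos left out. The filter of 1 CPM in 4 embryos left 6 of the 10 genes, with 4, 3 and 3 negative estimates in the 3 comparisons.

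Depth limits Tyrp1, Mlana, Oca2 and Slc45a2, with at most 60 reads in any embryo. Each embryo is 1 library, and p-values set a difference between genotypes against the spread between embryos. The reported fit treats embryos that share a title number as independent.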
